A study of Caenorhabditis elegans with 24 samples.

Results

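The genes described here encode cytoplasmic intermediate filament proteins of C. elegans, the ropes of coiled-coil protein that hold epithelial cells together. They were chosen by name: mua-6 and ifb-1 for the filaments of the epidermis, which is called the hypodermis here, and ifb-2, ifc-1, ifc-2 and ifd-1 for those of the intestine. Earlier results of these data were known when these genes and the gene lists below were chosen. Counts of calls among them are therefore descriptions and not independent tests. The filament genes chosen are 6 of the 46374 genes in each deposited gene table, and 22 of the 50139 bins of 2 kb lie over them. The study expressed DNA adenine methyltransferase (Dam) from E. coli, fused to BAF-1 or to the mutant BAF-1(G12T), in either tissue of L4 larvae, and sequenced DNA that had been methylated at GATC. GFP::Dam, which has no chromatin target of its own, was the control in each tissue and genotype.

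All groups carried the Dam construct as a single insertion on chromosome II behind a heat-shock promoter (hsp16.41p) and a cassette flanked by FRT sites, which a FLP recombinase removes. FLP was driven by dpy-7p in hypodermis and by nhx-2p in intestine, so that only cells in which those promoters had been active could make Dam. WT animals made Dam::BAF-1 or its control. Animals with the baf-1(G12T) allele made the mutant fusion or its control, so the fusion and the genetic background changed together and cannot be told apart. There were 24 libraries in 8 groups of 3 biological replicates, each from 4000 animals grown for 48 h at 20 °C, and each group was a strain of its own. They gave 12 columns of ratios, replicates 1 to 3 of hypodermis Dam::BAF-1, hypodermis Dam::BAF-1(G12T), intestine Dam::BAF-1 and intestine Dam::BAF-1(G12T).

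Intermediate filament proteins pair through a long coiled-coil rod and assemble end to end and side by side into filaments without polarity. In the worm epidermis, filaments of IFB-1 with an A-type partner such as MUA-6 (also called IFA-2) anchor in fibrous organelles, the hemidesmosome-like attachments that carry muscle force through the epidermis to the cuticle. In the intestine, IFB-2 and the C-, D- and P-type proteins form the endotube, a dense sheath under the microvilli that keeps the lumen open. The nucleus has a filament of the same superfamily, the lamina of LMN-1. BAF-1 is the small protein that links DNA to the lamina and to LEM-domain proteins of the inner nuclear membrane, and G12T corresponds to a change that causes a progeroid syndrome in humans. Comparing the epidermal with the intestinal filament genes asks how the association of BAF-1 with a gene differs between a tissue that uses it and one that does not, for proteins of the same family.

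The 6 genes lie on 3 chromosomes of the ce11 genome. mua-6 (WBGene00003485) is at chrX:16262289-16265686 on the minus strand. ifb-2 (WBGene00002054, chrII:5750188-5754140) and ifb-1 (WBGene00002053, chrII:5765618-5772084) run along the plus strand of chromosome II with 11477 bases between them, so an intestinal and an epidermal member share a neighbourhood. ifc-1 (WBGene00002055) is at chrV:2881393-2883753, plus strand. ifc-2 (WBGene00002056, chrX:642156-654904) and ifd-1 (WBGene00002057, chrX:8820703-8824448) are on the minus strand of the X chromosome, and ifc-2 is the longest of the 6. The ratio of a gene covers the annotated gene and 500 bp on each side.

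A bin or gene is measured only through its GATC sites, so the sequences in front of the genes are printed to show what the assay could and could not read there. Each line gives the 250 bases upstream of an annotated start, 5′ to 3′ on the strand of the gene, from the RefSeq sequence of WBcel235 (the same assembly as ce11) with the starts of Ensembl release 115. Capitals mark TGATAA on either strand, the letters that GATA factors such as ELT-2, the main regulator of intestinal genes, recognise. The stretch of mua-6 is chrX:16265687-16265936 (minus), that of the short transcript of ifb-1 chrII:5768695-5768944 (plus), that of ifb-2 is chrII:5749938-5750187 (plus), that of ifc-1 chrV:2881143-2881392 (plus) and that of ifd-1 chrX:8824449-8824698 (minus). The stretch of the short ifb-1 transcript lies inside an intron of the long one, whose own start was not analysed here for sequence.
mua-6: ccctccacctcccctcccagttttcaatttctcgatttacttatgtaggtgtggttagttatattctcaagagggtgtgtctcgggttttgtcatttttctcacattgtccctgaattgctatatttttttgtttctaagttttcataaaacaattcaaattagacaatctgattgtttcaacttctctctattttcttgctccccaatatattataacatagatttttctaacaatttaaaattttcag
ifb-1, short transcript: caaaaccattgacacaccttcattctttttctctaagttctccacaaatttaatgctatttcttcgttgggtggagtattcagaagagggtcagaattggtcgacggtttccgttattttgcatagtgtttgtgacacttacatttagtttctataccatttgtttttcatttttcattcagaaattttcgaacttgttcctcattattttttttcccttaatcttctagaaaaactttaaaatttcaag
ifb-2: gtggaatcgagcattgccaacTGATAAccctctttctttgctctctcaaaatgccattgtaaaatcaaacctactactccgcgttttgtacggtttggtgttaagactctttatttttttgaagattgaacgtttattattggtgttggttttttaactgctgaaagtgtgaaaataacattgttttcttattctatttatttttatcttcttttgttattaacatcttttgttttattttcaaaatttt
ifc-1: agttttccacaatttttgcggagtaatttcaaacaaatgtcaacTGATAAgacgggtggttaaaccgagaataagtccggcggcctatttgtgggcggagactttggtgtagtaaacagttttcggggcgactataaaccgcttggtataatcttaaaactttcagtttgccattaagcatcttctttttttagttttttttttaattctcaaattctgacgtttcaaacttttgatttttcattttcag
ifd-1: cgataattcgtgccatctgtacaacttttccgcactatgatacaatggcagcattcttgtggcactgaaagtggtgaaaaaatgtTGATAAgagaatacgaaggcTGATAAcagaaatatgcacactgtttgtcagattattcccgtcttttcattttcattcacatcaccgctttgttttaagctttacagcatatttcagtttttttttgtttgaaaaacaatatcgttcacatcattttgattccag

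Of the annotated starts of the 6 genes 14 were read, several of them a few bases apart, and none of the 14 stretches held a GATC. Of 19973 protein-coding promoters of that length, taken once per gene at its outer start, 38.4% held one. A ratio at one of these starts therefore came from sites in the gene body or farther upstream. TGATAA was present in front of 7 of the 14 starts, and in 26.8% of the promoters taken once per gene. These shares have unlike units, since starts a few bases apart count the same TGATAA more than once. It stood in front of all 3 starts of ifb-2, the starts of ifc-1 and ifd-1 and 2 of the starts of ifc-2, and was not found in front of mua-6 or the short ifb-1 transcript. A match is only a run of letters, and no binding was measured.

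The whole windows of the genes had no fewer GATC sites per kb than the median gene. They held 25 sites in mua-6, 27 in ifb-1, 22 in ifb-2, 16 in ifc-1, 43 in ifc-2 and 14 in ifd-1, or 2.95 to 5.68 per kb, where the median of 18013 tested protein-coding genes was 2.88 per kb and the quartiles 2.16 and 3.76. ifd-1, ifc-2 and ifb-1 lay within the quartiles and the other 3 above them. The 40 bases on either side of a site also occurred outside the window for 8 of 44 flanks in ifb-2, 10 of 86 in ifc-2, 3 of 50 in mua-6 and 1 of 32 in ifc-1, and for none in ifb-1 and ifd-1. How reads from such repeated flanks were placed was not stated in the sources at hand.

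The values are log2 ratios of the fusion to GFP::Dam, one per replicate, and 0 is the median of the tested genes in that column. A positive value means that a gene had more of the fusion reads than of the GFP::Dam reads, relative to the median gene. A negative value means the reverse, and less fusion signal cannot be told apart from more GFP::Dam signal. From GFP::Dam reads, the paper gives mua-6 as an example of a gene that is more accessible in hypodermis than in intestine. Genes were tested where the deposited table lists an adjusted p-value. There were 30374 to 36850 such genes per group. All 6 members were tested in all 4 groups, and none of their 72 values was at the most frequent value of its column, the one that a gene without reads takes. Centred, that value ran from -2.17 to 3.0 between columns. It was 0 in replicate 1 of hypodermis and of intestine Dam::BAF-1 and in replicates 2 and 3 of hypodermis Dam::BAF-1(G12T). In those columns 0 is also the value of a gene without reads. That value was held by 5345 to 15667 genes per column, most of them in replicate 1 of each group. The tables carry no read counts, so the depth behind the ratio of a single gene is unknown. The paper lists the reads of each library. For intestine Dam::BAF-1 it lists far more fusion reads in replicate 3 than in replicates 1 and 2, and the fewest in replicate 2. Genomic DNA holds no marker transcripts. The tissues were therefore not checked here independently of the BAF-1 ratios. Ratios of tissue genes are given at the end of this account. Reading them as a check would assume that genes in use have low ratios. In the paper the GFP::Dam samples of the tissues clustered apart.

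mua-6 and ifb-1, the epidermal pair, were low in hypodermis. mua-6 was at -3.17, -1.90 and -2.32 in hypodermis Dam::BAF-1 and at -3.18, -2.28 and -2.37 in hypodermis Dam::BAF-1(G12T). In intestine it was at 0.20, -1.84 and -2.05 with Dam::BAF-1 and at 0.07, -0.78 and -1.16 with Dam::BAF-1(G12T). Every hypodermis value was below every Dam::BAF-1(G12T) intestine value, while replicate 3 of intestine Dam::BAF-1 was within the range of hypodermis Dam::BAF-1. The means were -2.46 ± 0.65 and -2.61 ± 0.50 (SD, n = 3) in hypodermis and -1.23 ± 1.24 and -0.62 ± 0.63 in intestine.

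ifb-1, which encodes the essential B-type subunit of the epidermal filaments, was the lowest of the 6 genes in hypodermis. It was at -4.67, -4.16 and -2.47 in hypodermis Dam::BAF-1 and at -4.26, -3.72 and -3.29 in hypodermis Dam::BAF-1(G12T). In intestine it was at 0.12, -1.18 and -1.92 with Dam::BAF-1 and at -1.16, -0.98 and -1.29 with Dam::BAF-1(G12T). All 6 hypodermis values were lower than all 6 intestine values. The hypodermis means of -3.76 ± 1.15 and -3.75 ± 0.49 (SD, n = 3) stood at percentiles 1.59 and 1.32 of the tested genes, and the intestine means of -0.996 ± 1.03 and -1.14 ± 0.16 at percentiles 34.2 and 31.5.

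ifb-2, the B-type subunit of the endotube, was low in intestine and varied in hypodermis. In intestine it was at -1.89, -4.11 and -4.25 with Dam::BAF-1 and at -1.11, -3.05 and -4.06 with Dam::BAF-1(G12T). In hypodermis it was at -2.43, -0.42 and -3.27 with Dam::BAF-1 and at -0.895, 0.05 and -0.96 with Dam::BAF-1(G12T). With Dam::BAF-1 the tissues overlapped, and with Dam::BAF-1(G12T) they did not. The means were -3.42 ± 1.33 and -2.74 ± 1.50 in intestine and -2.04 ± 1.47 and -0.60 ± 0.56 in hypodermis (SD, n = 3).

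ifc-1 and ifc-2, the C-type subunits, were low in intestine and at or above the median in most hypodermis columns. ifc-1 was at -0.92, -1.79 and -3.97 in intestine Dam::BAF-1, at -0.90, -1.53 and -3.10 in intestine Dam::BAF-1(G12T), at 2.07, 1.72 and 0.39 in hypodermis Dam::BAF-1 and at 2.70, 1.58 and 0.48 in hypodermis Dam::BAF-1(G12T). It was negative in all 6 intestine columns and positive in all 6 hypodermis columns. ifc-2 was at -1.53, -2.78 and -4.06 in intestine Dam::BAF-1, at -1.16, -2.79 and -3.62 in intestine Dam::BAF-1(G12T), at 0.39, 1.59 and -0.66 in hypodermis Dam::BAF-1 and at 0.52, 0.64 and -0.14 in hypodermis Dam::BAF-1(G12T). Its hypodermis values lay on both sides of 0 in replicates of the same group, and still above every intestine value.

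ifd-1, a D-type subunit, was at -2.07, -2.29 and -4.39 in intestine Dam::BAF-1 and at -0.67, -2.79 and -4.01 in intestine Dam::BAF-1(G12T). In hypodermis it was at -1.64, -0.14 and -0.74 with Dam::BAF-1 and at -1.75, -0.90 and -0.66 with Dam::BAF-1(G12T). The tissues were apart with Dam::BAF-1 and overlapped with Dam::BAF-1(G12T), where replicate 1 of intestine was among the hypodermis values. Across the intestine columns the replicates shifted together. With Dam::BAF-1 replicate 1 was the highest and replicate 3 the lowest of the 3 values in all 6 genes, and with Dam::BAF-1(G12T) replicate 3 was the lowest in all 6 and replicate 1 the highest in 5 of 6.

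**Figure D1:**
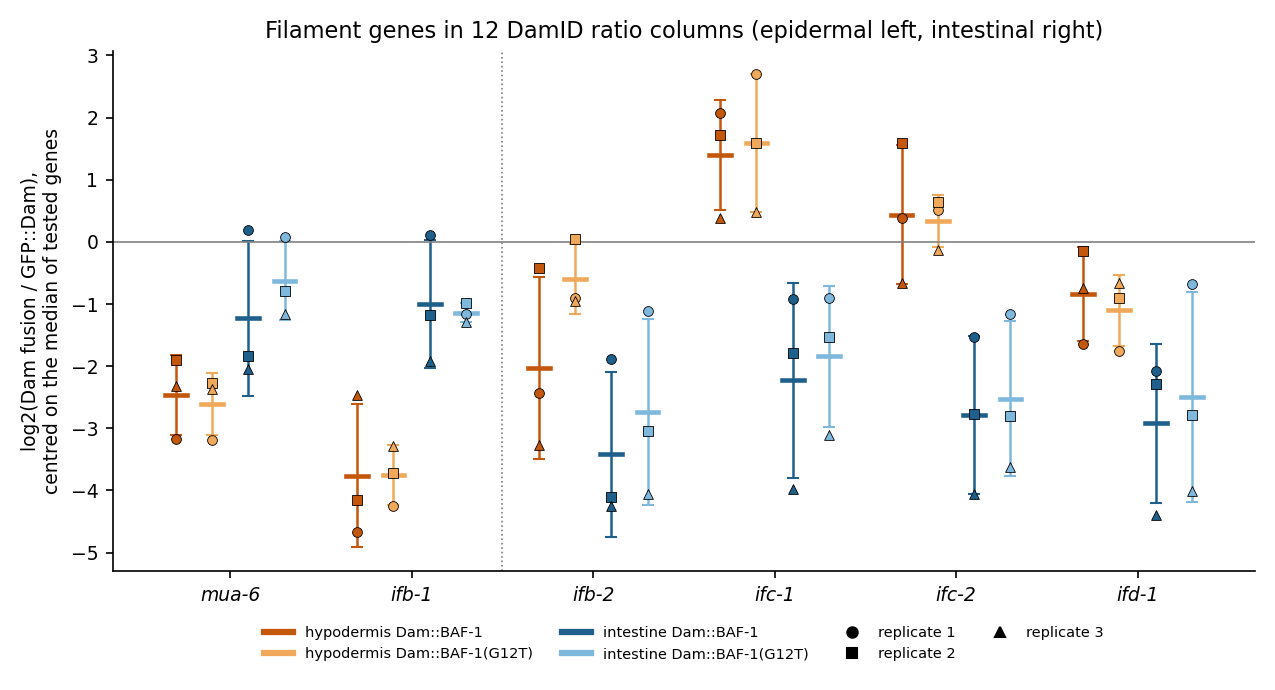
Log2 ratio of Dam fusion to GFP::Dam (y axis, centred on the median of the tested genes) for the 6 filament genes (x axis, epidermal genes left of the dotted line). Symbols are replicates 1 to 3, the wide bar is the mean and the thin bar 1 SD of 3 replicates. ifb-1 is lowest in hypodermis, with means of -3.76 and -3.75, and the 4 intestinal genes are lowest in intestine, with means from -3.42 to -1.84.

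Members were called below or above 0 by limma with Benjamini-Hochberg adjustment over all tested genes, at a threshold of 0.05. In hypodermis Dam::BAF-1 ifb-1 (adjusted p = 0.0013), mua-6 (0.0045) and ifb-2 (0.0214) were below 0, or 3 of 6, where 24% of all tested genes were below and 20.5% above. In hypodermis Dam::BAF-1(G12T) ifb-1 (0.000829) and mua-6 (0.00155) were below 0 and ifc-1 (0.0264) was above it, where 26.3% of all tested genes were below and 24.6% above. The ifb-2 call in the first group was lost without replicate 3 (-1.42, adjusted p = 0.188), and the ifc-1 call in the second without replicate 1 (1.03, 0.109) or replicate 2 (1.59, 0.0654). The epidermal pair stayed below 0 in hypodermis without any single replicate, and both genes were not called in intestine with all replicates (adjusted p from 0.134 to 0.423).

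In intestine the 4 intestinal filament genes were below 0 with either protein and neither epidermal gene was called. With Dam::BAF-1 their adjusted p-values were 0.00644 for ifb-2, 0.00786 for ifd-1, 0.0088 for ifc-2 and 0.0241 for ifc-1, where 22.4% of all tested genes were below 0 and 25.9% above. With Dam::BAF-1(G12T) they were 0.0136, 0.0223, 0.0156 and 0.0457 in the same order, where 19.2% were below and 21.9% above. Every one of these calls was lost without one or another replicate, although the 4 genes were negative in every intestine column. With Dam::BAF-1 none of the 4 was called without replicate 2, when no gene of the table was (11694 had an unadjusted p under 0.05), and only ifb-2 without replicate 3. Without replicate 1 all 6 members were below 0, mua-6 at -1.95 (0.00379) and ifb-1 at -1.55 (0.0219). With Dam::BAF-1(G12T) none was called without replicate 3 (adjusted p from 0.103 to 0.345) and ifc-1 was lost without replicate 2 (-2.0, 0.0521). With no filter none of the 4 was called with Dam::BAF-1(G12T).

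Ordered by mean ratio, the epidermal genes were at the bottom in hypodermis and at the top in intestine. From low to high the order was ifb-1, mua-6, ifb-2, ifd-1, ifc-2, ifc-1 in hypodermis Dam::BAF-1, and ifb-2, ifd-1, ifc-2, ifc-1, mua-6, ifb-1 in intestine Dam::BAF-1. Dam::BAF-1(G12T) had ifd-1 and ifb-2 in exchanged places in hypodermis, and likewise ifd-1 and ifc-2, and mua-6 and ifb-1, in intestine. Neighbours in these orders had overlapping replicates in every group, except in hypodermis Dam::BAF-1(G12T), where ifb-1, mua-6 and ifd-1 were apart from each other.

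The difference between the mean of the epidermal pair and the mean of the 4 intestinal genes takes both from the same column, so that it does not move with the centring of the column. It was -3.52, -3.72 and -1.32 in hypodermis Dam::BAF-1 and -3.86, -3.34 and -2.51 in hypodermis Dam::BAF-1(G12T). In intestine it was 1.76, 1.231 and 2.18 with Dam::BAF-1 and 0.42, 1.66 and 2.48 with Dam::BAF-1(G12T). It was negative in 6 of 6 hypodermis columns and positive in 6 of 6 intestine columns. The means were -2.85 ± 1.33, -3.24 ± 0.68, 1.72 ± 0.48 and 1.52 ± 1.04 (SD, n = 3). They are given as a description with no test, because the genes were chosen with results of these data known.

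Direct comparison of the tissues gave differences of the same sign with both proteins for each of the 6 genes, negative for the epidermal and positive for the intestinal ones. Values here are hypodermis minus intestine, after columns had been centred again on the genes tested in both tables, which moved every Dam::BAF-1 difference by -0.36 and every Dam::BAF-1(G12T) difference by -0.03. Tissue and strain changed together and cannot be told apart. For ifb-1 the difference was -3.13 (SE 0.82, limma adjusted p = 0.0299) with Dam::BAF-1 and -2.65 (SE 0.69, 0.037) with Dam::BAF-1(G12T). For ifc-1 it was 3.26 (SE 0.85, 0.0301) and 3.40 (SE 0.84, 0.0303), and for ifc-2 2.87 (SE 0.84, 0.0446) and 2.83 (SE 0.79, 0.0459). The replicates of the tissues were apart in all of these. With Dam::BAF-1 1 of 6 members was therefore below and 2 were above, where 5.56% of all tested genes were below and 2.62% above, and with Dam::BAF-1(G12T) the counts were the same, where 5.03% were below and 2.29% above.

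The other 3 members did not pass. In simulated data these tests recovered only 8% and 6% of genes with a log2 change of 2, so a difference of that size would mostly be missed. mua-6 differed by -1.60 (2 SE range -3.18 to -0.01, limma adjusted p = 0.207) with Dam::BAF-1 and -2.02 (-3.45 to -0.59, 0.101) with Dam::BAF-1(G12T). ifb-2 differed by 1.02 (-0.75 to 2.78, 0.485) and 2.10 (0.43 to 3.78, 0.14). ifd-1 differed by 1.71 (0.09 to 3.34, 0.188) and 1.36 (-0.39 to 3.10, 0.362). Replicates of the tissues overlapped for mua-6 and ifb-2 with Dam::BAF-1 and for ifd-1 with Dam::BAF-1(G12T).

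Each of the 3 called genes lost its call when one or another replicate was left out. With Dam::BAF-1 no member was called without replicate 1 or 2 of hypodermis or without replicate 2 or 3 of intestine, and without the last no gene of the table was, although 5752 had an unadjusted p under 0.05. With Dam::BAF-1(G12T) none was called without replicate 1 of hypodermis, when again no gene of the table was (6004 under 0.05 unadjusted), without replicate 2 of hypodermis or without replicate 3 of intestine. The ifb-1 difference ranged from -3.77 to -2.68 over the Dam::BAF-1 values without 1 replicate, with adjusted p from 0.0272 to 0.105, and the call remained only without replicate 3 of hypodermis. It ranged from -2.88 to -2.40 with Dam::BAF-1(G12T), with adjusted p from 0.053 to 0.135. The differences of ifc-1 ranged from 2.51 to 3.77 and from 2.78 to 3.95, and those of ifc-2 from 2.29 to 3.42 and from 2.30 to 3.49. Over all tested genes, 790 were above and 1677 below with Dam::BAF-1. With the centring as deposited, which moved the median difference of all genes from -0.22 to 0.61, 2796 were above and 634 below. The ifb-1 difference was then -2.30 (adjusted p = 0.0975) and not called, and those of ifc-1 and ifc-2 were 4.09 and 3.70 and called. The ifb-1 call with Dam::BAF-1 was also lost with no filter (-2.31, 0.167) and with the filter on the most frequent value (-2.79, 0.0757). The ifb-1 and ifc-2 calls with Dam::BAF-1(G12T) were lost with that filter (0.0506 and 0.0549) and with a replicate block (0.0702 and 0.0654), and the ifc-1 and ifc-2 calls with no filter (0.2 and 0.2003).

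**Figure D2:**
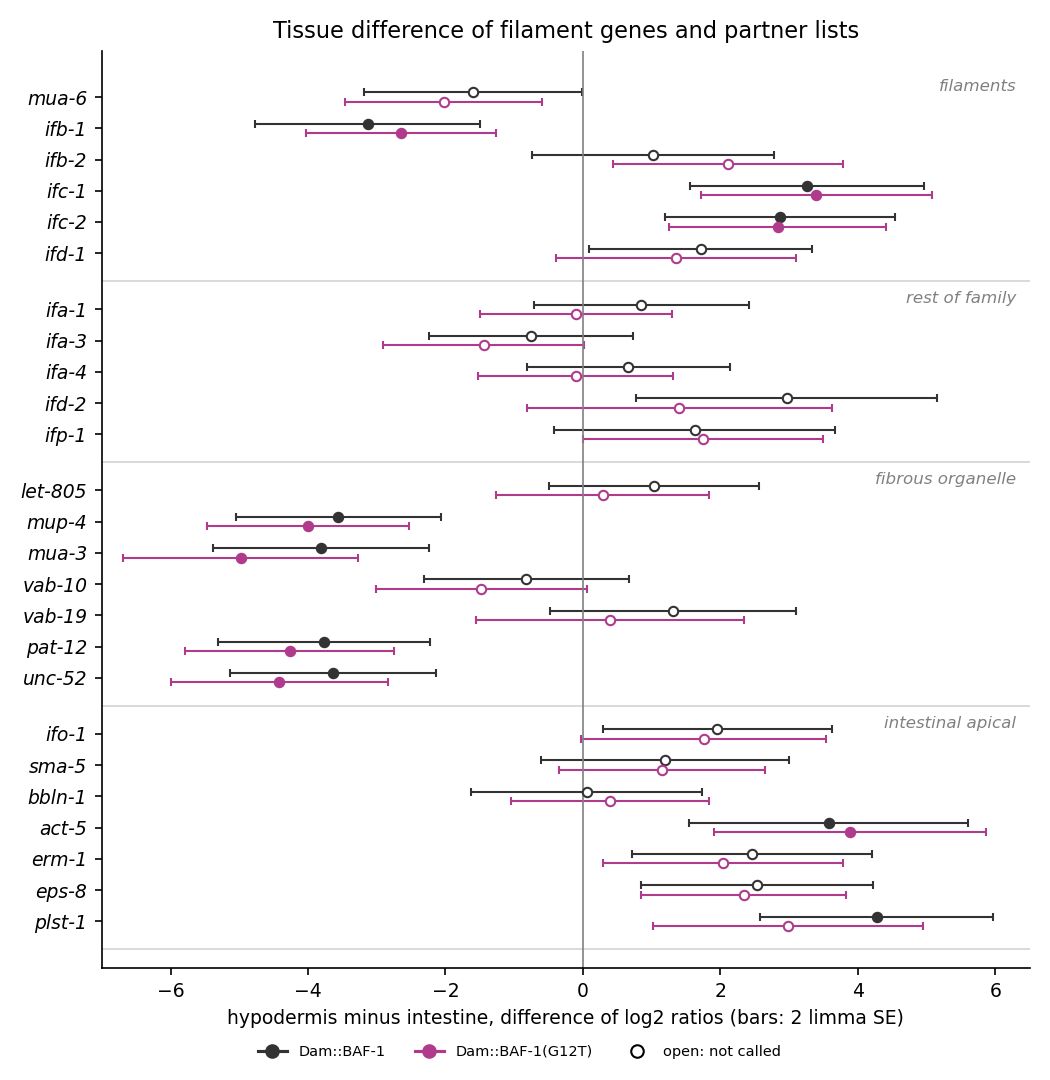
Difference of the log2 ratio between tissues, hypodermis minus intestine (x axis), for the 6 filament genes, 5 more filament genes of the family and 2 lists of genes of the structures that the filaments belong to (y axis). Points are limma estimates from 3 against 3 columns, bars are 2 limma SE, and filled points passed an adjusted p of 0.05. ifb-1 and 4 genes of the fibrous organelle lie on the negative side with both proteins, and ifc-1, ifc-2 and act-5 on the positive side.

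The proteins were compared within each tissue as Dam::BAF-1(G12T) minus Dam::BAF-1. The differences of the 6 genes ran from -0.16 to 1.54 in hypodermis (limma SE 0.65 to 0.80) and from -0.36 to 0.47 in intestine (SE 0.76 to 0.99). The highest, ifb-2 in hypodermis, was 1.54 with a 2 SE range of -0.06 to 3.14 and an unadjusted p of 0.0809. No member was called in either tissue or had an unadjusted p under 0.05 (0 of 6), and neither was any gene of the tables (0.0% in each), although 585 genes in hypodermis and 994 in intestine had an unadjusted p under 0.05. The change of the protein difference between the tissues ran from -1.14 to 0.37 (SE 0.97 to 1.233) over the members, and again 0.0% of the tested genes passed, with 1091 under 0.05 unadjusted. With same-numbered replicates paired by a replicate block, 1524 genes in hypodermis and 2058 in intestine had an unadjusted p under 0.05, and none was called. The ifb-2 difference in hypodermis then had a 2 SE range of 0.43 to 2.64 and an unadjusted p of 0.0241, and was not called (adjusted p = 0.946). Its replicate differences, before the columns were centred on shared genes, were 1.53, 0.46 and 2.31 in hypodermis and 0.78, 1.06 and 0.20 in intestine, all positive. In intestine ifb-2 had an unadjusted p of 0.481 with the block, and the other members had higher ones in both tissues.

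Bins of 2 kb show which stretch of a gene carried its ratio. Of the 22 bins over the 6 genes, 18 were tested in all 4 groups. In hypodermis Dam::BAF-1 7 were below 0 and 1 above, where 23.0% and 19.7% of all tested bins were, and in hypodermis Dam::BAF-1(G12T) 6 were below and 2 above, where 25.1% and 24.4% were. In intestine Dam::BAF-1 12 were below and none above, where 22.9% and 26.3% were, and in intestine Dam::BAF-1(G12T) 9 were below and none above, where 18.0% and 21.2% were. Between tissues 1 bin was below and 3 above with Dam::BAF-1, where 5.63% and 2.72% of all tested bins were, or 2162 below and 1045 above. With the deposited centring 1192 were below and 2332 above. With Dam::BAF-1(G12T) 4 were above and none below, where 2.49% and 5.07% were. Without replicate 3 the count of bins below 0 was 4 instead of 7 in hypodermis Dam::BAF-1, 3 instead of 12 in intestine Dam::BAF-1 and 4 instead of 9 in intestine Dam::BAF-1(G12T). Of the 4 bins that differed between tissues with Dam::BAF-1, 1 or 2 were left without replicate 2 of hypodermis or replicate 2 or 3 of intestine. With Dam::BAF-1(G12T) none was left without replicate 1 or 2 of hypodermis or replicate 3 of intestine, and 2 without replicate 3 of hypodermis.

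In ifb-1 the low ratio of hypodermis was deepest at chrII:5768001-5770000, the bin that holds the start of the short transcript, 3327 bases downstream of the long one, and 12 GATC sites. Its values were -4.66, -4.52 and -2.71 in hypodermis Dam::BAF-1 and -3.30, -4.93 and -3.77 in hypodermis Dam::BAF-1(G12T), with limma adjusted p-values of 0.000304 and 0.000169. In intestine they were 1.32, -0.39 and -1.25 with Dam::BAF-1, which was not called, and -4.0, -3.90 and -0.83 with Dam::BAF-1(G12T), which was below 0 (0.0126). Replicates 1 and 2 of intestine were far apart between the proteins, and replicate 3 was not. The tissue difference of the bin was -3.97 (SE 0.88, adjusted p = 0.00947) with Dam::BAF-1, which passed without any single replicate (-4.60 to -3.31, adjusted p from 0.00712 to 0.0459), and -1.10 (0.494) with Dam::BAF-1(G12T), and whether these differ from each other was not tested. The next bin downstream was at -3.02 and -3.10 in hypodermis, below 0 with both proteins, and at -1.09 and -0.17 in intestine, not called. The bin over the long start, of which 383 bases are in the gene, was at -1.36 and -1.55 in hypodermis, below 0 only with Dam::BAF-1(G12T) (0.016), and at -1.87 and -0.52 in intestine, below 0 only with Dam::BAF-1 (0.0167). The bin at the end, with 84 bases in the gene, was at -2.01 and -2.03 in hypodermis, below 0 with both proteins, and at -1.91 and -0.77 in intestine, below 0 only with Dam::BAF-1 (0.0128). The bin between the starts was tested in hypodermis Dam::BAF-1(G12T) only, at -0.79.

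The 3 bins over ifb-2, on the same stretch of chromosome II, had the opposite order of tissues. The middle bin was at -3.72 and -2.33 in intestine, below 0 with both proteins, and at -2.08 and -0.30 in hypodermis, below 0 with Dam::BAF-1 only. The bin at its start was at -2.48 and -3.06 in intestine, both below 0, and at -1.98 and -0.89 in hypodermis, of which only the first was called. The third, which covers the end of ifb-2 and the beginning of F10C1.8, was at -2.60 in intestine Dam::BAF-1, below 0, and at -0.15 and 0.58 in hypodermis, not called. None of the 3 passed the test between tissues.

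**Figure D3:**
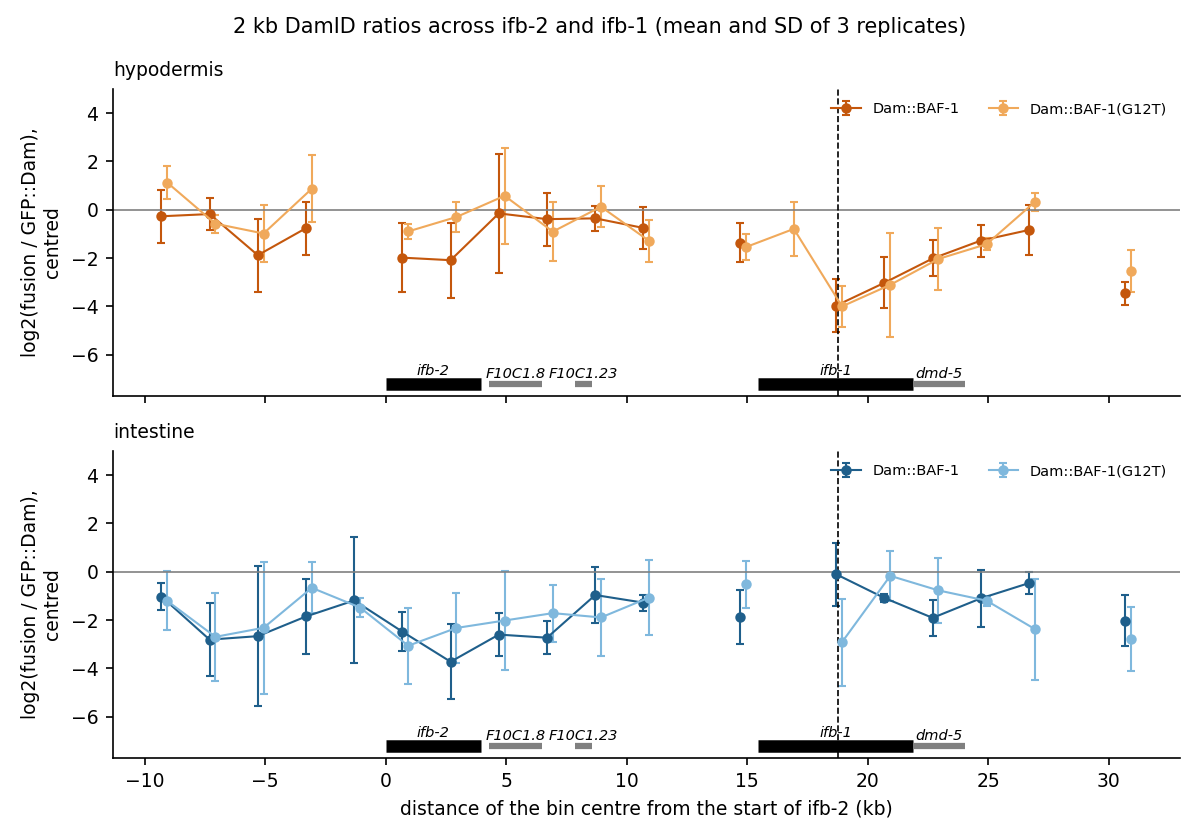
Log2 ratio of Dam fusion to GFP::Dam (y axis, centred on the median of the tested bins) in 2 kb bins against the distance of the bin centre from the start of ifb-2 (x axis, kb). Points are means and bars 1 SD of 3 replicates, gaps are bins that were not tested, filled boxes are genes and the dashed line is the start of the short ifb-1 transcript. Hypodermis reaches -3.96 and -3.997 in the bin at that start, and the middle bin of ifb-2 is at -3.72 and -2.33 in intestine.

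In mua-6 both bins were below 0 in hypodermis with either protein, at -2.32 and -2.47 in the bin at the start and at -2.54 and -2.46 in the other, and neither was called in intestine, at -1.17 to -0.39. In ifc-1 the bin over the gene body was above 0 in hypodermis, at 1.71 and 1.81, and at -1.94 in intestine Dam::BAF-1, below 0, and -1.55 in intestine Dam::BAF-1(G12T), not called. It differed between tissues by 3.54 (SE 0.88, limma adjusted p = 0.0169) and 3.35 (SE 0.84, 0.0281). The bin at the start of ifc-1 differed by 2.88 (0.0541) with Dam::BAF-1 and by 3.92 (SE 0.85, 0.0152) with Dam::BAF-1(G12T). None of these differences passed without replicate 2 of hypodermis or replicate 3 of intestine, nor those with Dam::BAF-1(G12T) without replicate 1 of hypodermis.

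ifc-2 has starts near 3 places, and its 7 bins run over the whole gene. In intestine the bin at the most distal start was near the median, at -0.13 and -0.12, and the means farther along the gene were -1.36 and -1.58 in the fourth bin, -2.53 and -2.14 in the fifth, -2.92 and -2.57 in the sixth and -2.39 and -2.54 in the last. The last 3 were below 0 with both proteins. In hypodermis no bin of ifc-2 was called, at -0.61 to 1.228. The sixth bin differed between tissues by 3.50 (SE 0.94, limma adjusted p = 0.0252) and 2.97 (SE 0.82, 0.0407), and the last by 2.88 (SE 0.85, 0.037) and 3.22 (SE 0.81, 0.028). Both bins lost their calls without replicate 2 of hypodermis or replicate 3 of intestine with either protein, and the second of the 7 was not tested in any group, and the third held 1 GATC site.

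**Figure D4:**
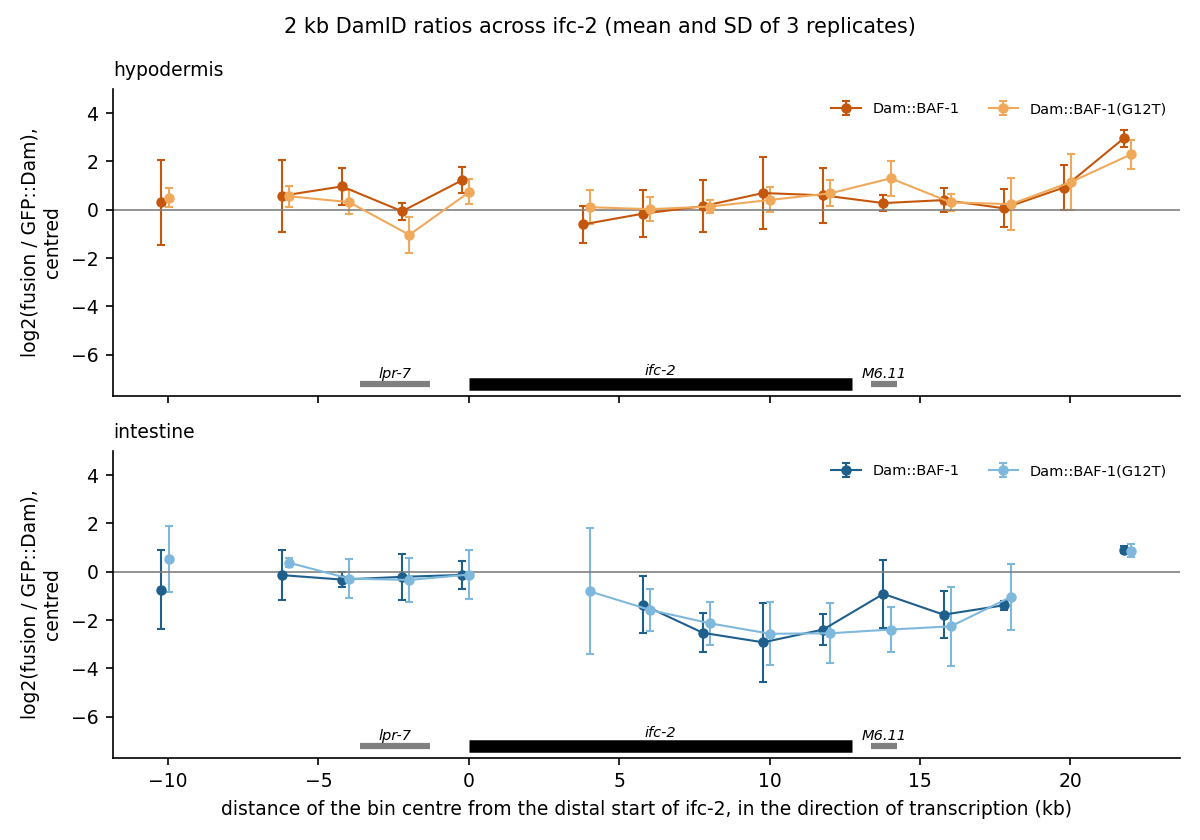
Log2 ratio of Dam fusion to GFP::Dam (y axis, centred on the median of the tested bins) in 2 kb bins along ifc-2, against the distance of the bin centre from its distal start in the direction of transcription (x axis, kb). Points are means and bars 1 SD of 3 replicates, gaps are bins that were not tested and filled boxes are genes. In intestine the mean is -0.13 and -0.12 at the distal start and -2.92 and -2.57 in the sixth bin, and no hypodermis bin of the gene was called.

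In ifd-1 the bin at the start was at -2.83 and -3.42 in intestine, below 0 with both proteins, and at -0.40 and -0.58 in hypodermis, not called. It differed between tissues by 2.31 (limma adjusted p = 0.086) and 2.83 (0.052). The middle bin was at -2.66 in intestine Dam::BAF-1, below 0, and at -2.01 in intestine Dam::BAF-1(G12T), not called. The bin at the end was at -2.28 and -2.31 in intestine, below 0 with both proteins.

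Each gene was set beside the protein-coding genes within 100 kb whose windows did not overlap its own. In hypodermis mua-6 was 2.34 and 2.17 below the median of 19 and 20 such genes and lower than each of them, and ifb-1 was 2.66 and 2.53 below the median of 57 and 62 and lower than each. In intestine the surroundings of ifb-1 were themselves low, at medians of -2.25 and -1.74, and ifb-1 was above them by 1.25 and 0.60, with 59 of 63 and 50 of 63 of those genes lower. ifb-2, in nearly the same surroundings, was 1.13 and 1.04 below the intestine medians, with 2 of 64 and 5 of 64 genes lower. ifb-1 and ifb-2 thus departed to opposite sides from intestine surroundings that they mostly share. In hypodermis ifb-2 was 0.72 below a median of -1.32 with Dam::BAF-1, with 13 of 59 genes lower, and 0.83 above a median of -1.43 with Dam::BAF-1(G12T), with 46 of 63 lower.

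The surroundings of ifc-1 were high in every group, at medians of 1.73 to 2.24. ifc-1 was near them in hypodermis, lower by 0.33 and 0.41, and was 4.17 and 4.08 below them in intestine, where 0 of 50 and 1 of 49 genes were lower. ifc-2 was 0.42 and 0.49 below its surroundings in hypodermis and 3.26 and 3.14 below them in intestine, where 0 of 26 and 1 of 25 genes were lower. ifd-1 was within 0.62 of its surroundings in hypodermis and 2.50 and 2.72 below them in intestine, with 2 of 33 and 6 of 33 genes lower. mua-6 in intestine was 0.64 and 0.16 below its surroundings, with 6 of 20 and 9 of 20 genes lower.

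**Figure D5:**
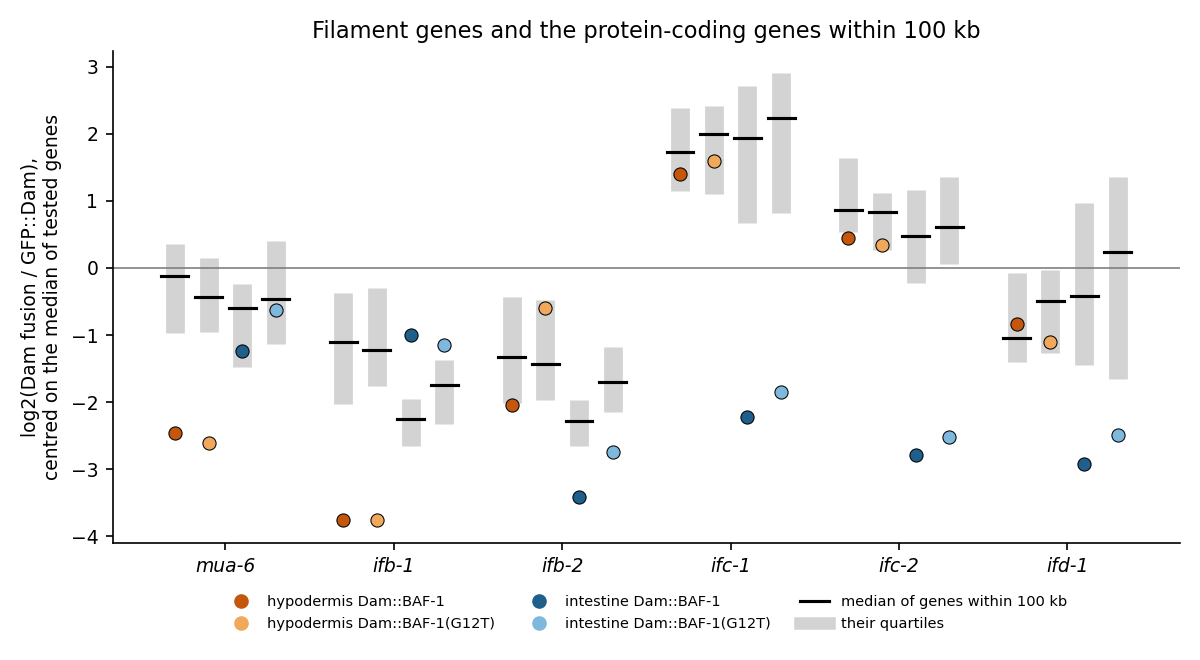
Mean log2 ratio of Dam fusion to GFP::Dam (y axis, centred on the median of the tested genes) of each filament gene (points) in the 4 groups, beside the protein-coding genes within 100 kb (black line, their median, and grey box, their quartiles). mua-6 and ifb-1 lie below the boxes in hypodermis, and ifc-1, ifc-2 and ifd-1 lie below them in intestine, by 4.17, 3.26 and 2.50 from the median with Dam::BAF-1.

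Genes next to the members did not all share their ratios. sgk-1, a kinase gene 166 bp from mua-6 with an overlapping window, was at -0.19 and -0.51 in hypodermis, not called, and at -1.77 and -1.98 in intestine, below 0 with both proteins, which is the reverse order to mua-6. ifa-3, another A-type filament gene, 1510 bp from mua-6, was at -0.63, -0.84, -0.24 and 0.57 and was not called in any group. F10C1.8, 327 bp from ifb-2 with an overlapping window, was at 0.15 and -0.19 in hypodermis and at -3.22 and -2.05 in intestine, below 0 in the latter, and its tissue difference passed with Dam::BAF-1 (3.01, SE 0.78, limma adjusted p = 0.0292). M6.11, 615 bp from ifc-2, was at 0.01 and 0.19 in hypodermis and at -1.81 and -2.81 in intestine, below 0. lpr-7, 1279 bp from the other end of ifc-2, was not called in any group, at -0.80 to 0.21. dmd-5, whose window overlaps that of ifb-1, was at -2.01 and -2.11 in hypodermis, below 0, and at -2.26 (below 0) and -0.93 in intestine. Overlapping windows count some GATC sites for both genes. C28G1.6, 4999 bp from ifd-1, had a tissue difference of 3.36 with Dam::BAF-1(G12T) (SE 0.90, limma adjusted p = 0.0404). Its call remained in 1 of 6 fits without a single replicate and was lost with a replicate block and with no filter. The remaining nearest neighbours are not described here.

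Of the other genes of the family, the D- and P-type endotube genes had negative means in intestine. The A-type genes ifa-1, ifa-3 and ifa-4 lay between -1.48 and 0.57 in the 4 groups and were called in none. By contrast mua-6, also A-type, was below 0 in hypodermis with both proteins. ifd-2, a D-type endotube gene, was at 0.24 and -0.57 in hypodermis and at -3.08 (limma adjusted p = 0.00676) and -2.01 in intestine, with a tissue difference of 2.96 (0.0974) with Dam::BAF-1. ifp-1, the P-type endotube gene, was at -1.05 and -0.22 in hypodermis and at -3.04 (0.00651) and -2.0 (0.0495) in intestine. Neither was called in intestine Dam::BAF-1 without replicate 2, nor ifp-1 in intestine Dam::BAF-1(G12T) without replicate 3. Between tissues 0 of the 5 genes passed with either protein, and 1 had an unadjusted p under 0.05 with Dam::BAF-1. lmn-1, the single lamin gene, was at -0.17, -0.53, -1.75 and -0.88 and was not called.

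Of 7 genes for fibrous organelles, where the epidermal filaments anchor, 4 were called lower in hypodermis than in intestine with both proteins. None was called higher, although the differences of the list reached up to 1.32 and 0.39. Of all tested genes 5.56% and 5.03% were called lower. The list medians were -3.56 and -3.999, where the medians of all tested genes were -0.22 and -0.13. The differences were -3.56 (SE 0.75, limma adjusted p = 0.0134) and -3.999 (SE 0.74, 0.0101) for mup-4, a transmembrane receptor of the apical side, -3.81 (SE 0.78, 0.0127) and -4.98 (SE 0.85, 0.00827) for mua-3, a receptor of the same kind, -3.77 (SE 0.77, 0.0123) and -4.27 (SE 0.76, 0.00906) for pat-12, a cytoplasmic component, and -3.64 (SE 0.75, 0.0127) and -4.42 (SE 0.79, 0.00924) for unc-52, the perlecan of the basement membrane under muscle. They did not come about in the same way. mup-4 was below 0 in hypodermis, at -2.74 and -3.13, and not called in intestine, at 0.46 and 0.84. Conversely mua-3, pat-12 and unc-52 were above 0 in intestine, at 3.21 and 3.89, 3.09 and 3.59, and 2.60 and 3.34, and not called in hypodermis. let-805, the basal receptor myotactin, vab-10, the spectraplakin, and vab-19, a Kank protein, did not pass the test between tissues. All 4 calls were lost with Dam::BAF-1 without replicate 2 of hypodermis or replicate 3 of intestine, and with Dam::BAF-1(G12T) without replicate 1 or 2 of hypodermis. With no filter 0 of the 4 were called with either protein.

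Within each group, fibrous organelle genes were below 0 in 1 and 2 of 7 in hypodermis (medians -0.57 and -1.04), close to the 24% and 26.3% of all tested genes. They were above 0 in 3 of 7 in intestine with both proteins (0.46 and 0.84), where 25.9% and 21.9% of all tested genes were. The 3 calls above 0 fell to 0 without replicate 2 of intestine Dam::BAF-1 and remained without any single replicate of intestine Dam::BAF-1(G12T). vab-19 was below 0 in intestine Dam::BAF-1, at -2.25.

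Of 7 genes for the apical side of intestinal cells, all 7 were below 0 in intestine Dam::BAF-1 and 6 of 7 in intestine Dam::BAF-1(G12T), with medians of -2.75 and -2.36 where those of all tested genes were 0.08 and -0.03. They were ifo-1, which organises the endotube (-3.06 and -2.43), sma-5, a MAP kinase needed for endotube shape (-2.78 and -2.87), bbln-1, a small coiled-coil protein of the endotube (-2.75 and -2.36), erm-1, the ezrin-radixin-moesin linker of microvilli (-3.02 and -2.87), eps-8, an actin capping protein of microvilli (-2.54 and -2.24), act-5, the microvillar actin (-2.16 and -2.28), and with Dam::BAF-1 plst-1, a plastin (-2.28). With Dam::BAF-1 0 of 7 were below 0 without replicate 2 or replicate 3, and with Dam::BAF-1(G12T) 1 of 7 was without replicate 3 and 0 with no filter. The shares of all tested genes below 0 were 22.4% and 19.2%. In hypodermis 1 was above and 1 below with Dam::BAF-1 and 2 above and 2 below with Dam::BAF-1(G12T), where bbln-1 was below 0 in both groups (-2.33 and -1.93) and plst-1 above (2.36 and 1.88).

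Between tissues, act-5 was higher in hypodermis with both proteins, by 3.58 (SE 1.01, limma adjusted p = 0.0403) and 3.89 (SE 0.99, 0.0338), and plst-1 with Dam::BAF-1, by 4.27 (SE 0.85, 0.0117). Of all tested genes 2.62% and 2.29% were called higher in hypodermis. The list medians were 2.46 and 2.04. Neither act-5 nor plst-1 was called with Dam::BAF-1 without replicate 2 or 3 of intestine. With Dam::BAF-1 act-5 was also not called without replicate 1 or 2 of hypodermis. With Dam::BAF-1(G12T) act-5 was lost without replicate 1 or 2 of hypodermis or replicate 3 of intestine.

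Genes for apical junctions, which both epithelia have, were in part below 0 in both. dlg-1 (Discs large) was at -3.39, -3.14, -3.10 and -2.42 and hmp-1 (alpha-catenin) was likewise below 0 in all 4 groups. Of the 6 genes listed 3 and 4 were below 0 in hypodermis and 4 and 2 in intestine, with medians of -1.81, -1.98, -1.93 and -1.44, where 24%, 26.3%, 22.4% and 19.2% of all tested genes were below 0. hmr-1, the cadherin, was above 0 in intestine Dam::BAF-1(G12T), at 2.35. Of the 6, 0 passed the test between tissues, with 1 under an unadjusted p of 0.05 for each protein. With no filter 1 of the 6 was below 0 in hypodermis Dam::BAF-1(G12T) and 0 in intestine Dam::BAF-1(G12T). In intestine 0 were below 0 without replicate 2 or 3 of Dam::BAF-1 or without replicate 3 of Dam::BAF-1(G12T).

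The 4 genes taken for hypodermis (dpy-7, rol-6, elt-3 and lin-26) were all below 0 in hypodermis with both proteins, and 2 of 4 were below 0 in intestine with each. The shares of all tested genes below 0 were 24% and 26.3% in hypodermis and 22.4% and 19.2% in intestine. The count was 3 without replicate 2 of hypodermis Dam::BAF-1, 0 without replicate 2 of intestine Dam::BAF-1, and 1 with no filter in hypodermis or intestine Dam::BAF-1(G12T). dpy-7 was above 0 in intestine Dam::BAF-1(G12T), at 1.66, and not when any one replicate was left out. Between tissues 5.56% and 5.03% of all tested genes were called lower in hypodermis. Of the 4 genes only dpy-7 was, with differences of -3.33 (limma adjusted p = 0.0202) and -4.30 (0.00754). It was not called with Dam::BAF-1 without replicate 2 of hypodermis or replicate 2 or 3 of intestine, or with Dam::BAF-1(G12T) without replicate 1 of hypodermis. Of the 5 genes taken for intestine (elt-2, ges-1, nhx-2, pept-1 and mtl-2) 3 were below 0 in intestine with both proteins, with 0 left in intestine Dam::BAF-1(G12T) with no filter, 0 left without replicate 2 of intestine Dam::BAF-1 and 1 left without replicate 3 of either intestine group. In hypodermis 1 of the 5, nhx-2, was below 0. Between tissues 0 of the 5 passed, with 1 under an unadjusted p of 0.05 with Dam::BAF-1(G12T). The promoters of dpy-7 and nhx-2 are also present in the constructs that drive FLP.

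Across the 12 columns ifc-1 and ifc-2 were most alike among the members (Pearson r = 0.95), mua-6 and ifb-1 had r = 0.88, ifc-2 and ifd-1 r = 0.84, and ifb-1 and ifc-1 were opposed (-0.85). These describe 12 columns that share tissues and replicates, and carry no test. The protein-coding gene farther than 50 kb away with the most similar pattern was mec-8 for mua-6 (0.97), C10G8.3 for ifb-1 (0.97), hpo-34 for ifb-2 (0.95), acox-1.3 for ifc-1 (0.98), C34H4.2 for ifc-2 (0.99) and smc-6 for ifd-1 (0.96). Genes with r over 0.9 numbered 78 for mua-6, 193 for ifb-1, 15 for ifb-2, 493 for ifc-1, 451 for ifc-2 and 62 for ifd-1, so that the pattern of ifb-2 had the fewest counterparts.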

How the data were processed

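DamID ratios were read from 8 deposited tables, 4 of genes and 4 of 2 kb bins. Each library used 400 ng of DNA and 22 PCR cycles. The authors kept reads with the adapter that mapped to GATC sites of ce11 and counted them with the RDamIDSeq pipelines over bins and over genes extended by 500 bp. The deposited values are log2 ratios of relative reads, fusion over GFP::Dam, for each replicate number, made by the authors with a pseudocount of 1 and less the mean over all features. The aligner was not stated in the sources at hand. The p-values deposited by the authors came from DESeq2, and only their presence was used, as the filter for tested features. The authors' averages were not used. The tables hold no counts, so no depth per gene or counting interval is given and precision is the spread between replicates. The reads per library that the paper lists were not used.

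Each column was centred on its median over tested features. Means were tested against 0, and tissues and proteins 3 columns against 3, with limma 3.58.1 in R 4.3.3 (robust empirical Bayes, two-sided) and Benjamini-Hochberg adjustment over all tested features at 0.05. Differences were taken after centring on features tested in both tables. The script was tested on simulated data. Same-numbered columns of the proteins deviated together within a tissue (r = 0.45, 0.32 and 0.28 in hypodermis, 0.30, 0.24 and 0.43 in intestine), so the numbers pair them, and with a replicate block 0 members were called between proteins, as without it.

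Sequences are from RefSeq WBcel235 and annotation from Ensembl release 115, in which 46287 of 46374 gene IDs were found, all on the same chromosome as in the tables. The members and all gene lists were chosen with earlier results of these data known. The genes named are the members, a part of their nearest protein-coding neighbours, the rest of the family and the listed partner and tissue genes. The most similar gene of each member, taken by Pearson correlation over the 12 columns, is named too. Alternatives were the deposited centring, other filters, the replicate block, non-robust limma and leaving out each replicate. The tests of bins between tissues were added after the data had been seen. The sequence upstream of one ifb-1 start is not reported here.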

Additional observations from a re-analysis of the deposited data

Results flagged for a closer look

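The ratios of 3 filament genes differed between the tissues by the limma test, with each protein. For ifb-1 hypodermis minus intestine was -3.13 for Dam::BAF-1 and -2.65 for Dam::BAF-1(G12T), and all 6 hypodermis values were the lower ones. For ifc-1 it was 3.26 and 3.40, and for ifc-2 it was 2.87 and 2.83, with all 6 hypodermis values the higher ones in both genes. The groups hold 3 columns each, too few for a test of single outlying replicates. Each of these calls was lost without one or another replicate. With Dam::BAF-1(G12T) those of ifb-1 and ifc-2 were lost with a replicate block (adjusted p = 0.0702 and 0.0654) and with the filter on the most frequent value, and those of ifc-1 and ifc-2 with no filter. With Dam::BAF-1 that of ifb-1 was lost with either other filter and with the deposited centring.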

How the results depend on the processing

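The epidermal minus intestinal difference kept its sign under every alternative run, at -3.81 to -2.20 in hypodermis and 1.04 to 2.07 in intestine, and moved by more than 1 SD only with the mean of 2 kb bins in intestine Dam::BAF-1 (1.24). Of the other values of single genes, 263 kept their direction and their side of the threshold, 56 lost and 4 gained a call, and 1 changed sign, ifc-2 in hypodermis Dam::BAF-1 (-0.13 without replicate 2, 0.99 without replicate 3). With the deposited centring 1 member and 2 bins were above 0 in hypodermis Dam::BAF-1 and 7 bins differed between tissues with Dam::BAF-1. With no filter 1 member and 2 bins were above 0 in hypodermis Dam::BAF-1, 0 members and 1 bin in hypodermis Dam::BAF-1(G12T), 0 members were below 0 in intestine Dam::BAF-1(G12T), and 1 member and 0 bins differed between tissues with Dam::BAF-1(G12T). With bins of at least 1 kb in the gene 1 was above 0 in hypodermis Dam::BAF-1(G12T), and with the filter on the most frequent value 1 member differed between tissues with Dam::BAF-1(G12T). The causes were not tested.

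Without single replicates, in the order Dam::BAF-1 and Dam::BAF-1(G12T), 0 to 2 and 1 to 2 bins were above 0 in hypodermis, 4 to 7 bins were below 0 in hypodermis Dam::BAF-1, and 0 to 1 members were above 0 in hypodermis Dam::BAF-1(G12T). In intestine 0 to 6 and 0 to 4 members and 3 to 15 and 4 to 11 bins were below 0. Between tissues 0 to 3 and 0 to 2 members and 1 to 6 and 0 to 6 bins differed. Same-numbered columns of different tissues did not deviate together (r from -0.10 to 0.08), so the numbers do not pair them, and with a replicate block 1 member differed with Dam::BAF-1(G12T), since ifb-1 (adjusted p = 0.0702) and ifc-2 (0.0654) were lost, and 369 genes were above and 847 below against 733 and 1611 without it. With no filter 1511 genes were above and 540 below in the Dam::BAF-1 tissue comparison, 21 and 329 in that of Dam::BAF-1(G12T), 423 and 412 in hypodermis Dam::BAF-1(G12T) and 6446 and 1073 in intestine Dam::BAF-1(G12T). With the filter on the most frequent value 747 and 870 were between tissues with Dam::BAF-1. The protein differences of single members changed sign in 57 of 234 values under alternatives, and 0 passed the threshold. The replicate block changed no other call of a member gene. The read counts behind single ratios are unknown.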
